A study of Mus musculus with 9 samples.

Results

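Arrb1 and Arrb2 encode beta-arrestin-1 and beta-arrestin-2, the 2 beta-arrestins of the mouse. Their rows were found by gene symbol in the tables of 9 RNA sequencing libraries, and they are 2 of the 24421 genes listed in each table. The series title names cancer cachexia, a loss of muscle and fat in tumour disease, and endocytosis of the Wnt co-receptor LRP6 set off by Dkk1, a secreted Wnt inhibitor. The kidney libraries were 1 labelled Tumor and given PBS and 1 labelled Wild Type and given PBS. The 7 muscle libraries were 2 labelled wild type and given PBS, 1 labelled wild type and given DKK1, 1 labelled tumour and given PBS, 1 labelled tumour and given MDC, 1 labelled beta-arrestin_ko and given PBS and 1 labelled beta-arrestin_ko and given DKK1. The labels used here give MDC by its letters alone, and they give no strain, age, dose or type of tumour and do not say which beta-arrestin gene was deleted or in which cells. Table names carry a set letter: both kidney libraries are in set A, the tumour muscle libraries and wild type PBS library 1 are in set B, and the other 4 muscle libraries are in set C. Nothing in the labels says that the wild type PBS muscle libraries came from separate animals. The p-values of fits with 1 coefficient per group rest on the spread between those libraries, which may be technical, and on spread shared across genes. Exact permutation p-values instead come from relabelling the libraries of each split. A fit with a set letter term takes its spread from the interaction of knockout label and DKK1.

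Beta-arrestins are cytoplasmic adaptor proteins. After an agonist activates a G protein-coupled receptor, receptor kinases (GRKs) phosphorylate it, a beta-arrestin binds, coupling to G proteins stops, and the arrestin hands the receptor to clathrin and the AP-2 adaptor for uptake. Beta-arrestins also hold kinases, phosphatases and ubiquitin ligases near receptors, and they bind Dishevelled proteins of the Wnt pathway. Both genes are expressed in most tissues, while the visual arrestins Sag and Arr3 belong to photoreceptors.

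Arrb1 lies on the plus strand of mm10 chromosome 7 from 99535466 to 99606771, and Arrb2 on the plus strand of chromosome 11 from 70432635 to 70440828. Aligned to each other, the coding sequences of the longest RefSeq-matched transcripts were identical at 881 of 1203 bases (73.2%), and the longest run shared by the transcripts was 18 bases. The coding stretch for the clathrin-binding box is shown first, because each beta-arrestin can bind clathrin through this short motif near the carboxyl end. The capitals mark the 15 bases of the box, and the lower case letters are the coding bases around it, from GENCODE M21 transcripts on GRCm38, the assembly that mm10 names.
Arrb1 clathrin box: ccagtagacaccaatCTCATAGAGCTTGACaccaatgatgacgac
Arrb2 clathrin box: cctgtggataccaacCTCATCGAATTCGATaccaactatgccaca

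Each gene also has coding isoforms that differ by a short insert, and the deposited counts hold 1 row per gene, so levels below sum over the isoforms. The Arrb1 insert of 24 bases (chr7:99597036-99597059, plus strand) is in transcript Arrb1-202 and not in Arrb1-201. The Arrb2 insert of 33 bases (chr11:70439818-70439850, plus strand) is in Arrb2-201 and not in Arrb2-203. The inserts are shown in capitals with the coding bases on either side in lower case.
Arrb1 isoform insert: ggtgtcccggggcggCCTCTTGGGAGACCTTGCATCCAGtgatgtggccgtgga
Arrb2 isoform insert: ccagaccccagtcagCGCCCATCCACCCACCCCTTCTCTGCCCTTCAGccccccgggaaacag

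The transcripts of the genes differ in how much of them is coding, which bears on what a whole-gene count can show. The row length given for Arrb1 is 7112 bases, close to the 7132 bases of Arrb1-202, of which 17.6% is coding and 79.6% lies in the last exon. The row length of Arrb2 is 1988 bases, against 1848 bases for Arrb2-204, of which 66.6% is coding. The longest coding exon before the last one has 197 bases in both, which is 2.76% of Arrb1-202 and 10.7% of Arrb2-204. A whole-gene count would therefore change little if 1 such exon were missing and the rest of the transcript were still made.

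**Figure D1:**
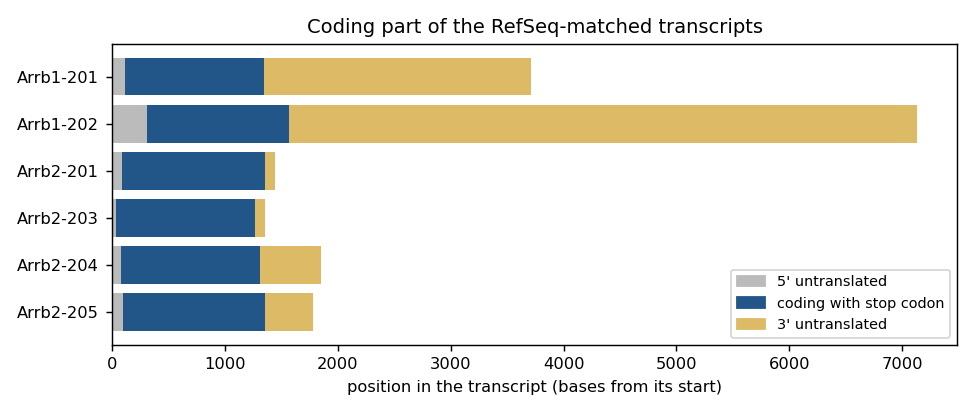
Structure of the 6 RefSeq-matched transcripts of Arrb1 and Arrb2, with the position in the transcript in bases on the x axis and untranslated and coding parts as coloured blocks. The coding part is 17.6% of Arrb1-202 and 66.6% of Arrb2-204.

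Total counts ran from 21358854 to 32607835 in muscle and were 44421797 and 42480786 in kidney. Skeletal muscle markers summed to between 84909 and 233957 CPM in the muscle libraries and to 203 and 276 CPM in the kidney libraries, and the kidney markers were at 11473 and 15996 CPM in kidney against 2.4 to 31.8 CPM in muscle. CPM is the count scaled to library size with TMM, on 1 scale for the muscle libraries and another for the kidney libraries. In muscle, edgeR's quasi-likelihood test with Benjamini-Hochberg adjustment called 0 of 15482 genes (0%) past an adjusted p of 0.05 in each of the 8 contrasts, while DESeq2 called between 0 and 19. With edgeR, 38 to 231 genes had an unadjusted p under 0.05, fewer than a share of 0.05 of the genes tested. The edgeR test is therefore cautious here, and a high adjusted p does not show that a gene stayed the same. The fit has 1 residual degree of freedom, from the wild type PBS pair, whose libraries are in sets B and C. With additive terms and a term for the set letter, a fit added after the data were seen, edgeR called between 51 and 3184 genes and neither Arrb1 nor Arrb2. Sizes are therefore also read against a size rule, a difference of at least 2-fold (from each wild type library where these are the reference) with at least 100 counts in the higher library. All samples are bulk RNA, in which fewer cells of a type and less RNA per cell cannot be told apart.

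Per unit of deposited row length, Arrb2 was above Arrb1 in 6 of the 7 muscle libraries beyond the counting interval of their ratio, the 2 were about equal in the library labelled knockout DKK1, and Arrb1 was above Arrb2 in wild type kidney. On the deposited RPKM scale, which divides by gene length and is used here for levels of different genes, Arrb1 was at 1.91 and 3.06 in the wild type PBS muscle libraries 1 and 2, 2.92 in tumour PBS, 2.28 in tumour MDC, 3.99 in wild type DKK1, 2.81 in the library labelled knockout PBS and 4.23 in the one labelled knockout DKK1. Arrb2 was at 3.002, 4.24, 7.19, 7.07, 5.37, 4.70 and 4.27 RPKM in the same order. In kidney, Arrb1 was at 9.90 RPKM in wild type and 5.42 in tumour, and Arrb2 at 5.79 and 5.33. On this scale Arrb1 was highest in wild type kidney and Arrb2 in the 2 tumour muscle libraries.

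**Figure D2:**
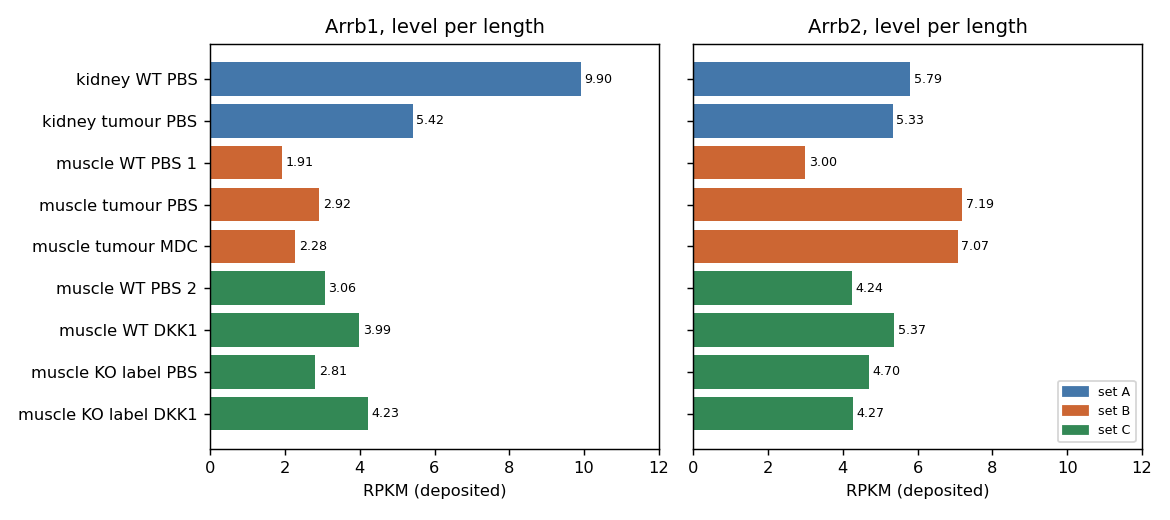
Deposited RPKM of Arrb1 (left) and Arrb2 (right) in each of the 9 libraries, 1 bar per library, coloured by set letter. Arrb1 is highest in wild type kidney at 9.90 RPKM, and Arrb2 is highest in the tumour muscle libraries at 7.19 and 7.07 RPKM.

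Among the 7 muscle libraries both genes varied less than the median gene. The log2 CPM of Arrb1 spanned 0.71 and that of Arrb2 spanned 1.11, against a median span of 1.28 over the 15482 genes tested. The wild type PBS libraries differed by 0.23 for Arrb1 and by 0.05 for Arrb2 on the log2 scale with TMM scaling. The median difference over all genes was 0.66, and 4.35% of genes had a difference as small as that of Arrb2. On the deposited RPKM scale, which uses total counts, these libraries had 1.91 and 3.06 of Arrb1 and 3.002 and 4.24 of Arrb2. The closeness of the pair therefore depends on the scaling. In ascending order Arrb1 was at 17.3 CPM in wild type PBS 1, 18.9 in tumour MDC, 19.9 in tumour PBS, 20.3 in wild type PBS 2, 20.5 in knockout-labelled PBS, 22.1 in wild type DKK1 and 28.2 in knockout-labelled DKK1. The wild type libraries took the first and the fourth place, so the libraries between them do not differ beyond the wild type spread (mean 18.8 ± 2.12 CPM, SD, n = 2). The order for Arrb2 was wild type PBS 1 at 7.59 CPM, wild type PBS 2 at 7.85, knockout-labelled DKK1 at 7.98, wild type DKK1 at 8.32, knockout-labelled PBS at 9.61, tumour PBS at 13.7 and tumour MDC at 16.4. Here the largest step separated the tumour libraries from the other 5, and the wild type mean was 7.72 ± 0.186 CPM (SD, n = 2). Over the 7 muscle libraries, which share the scaling and the set letters, the log2 CPM of the 2 genes had a Pearson r of -0.29, given as a description.

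Wild type kidney held more Arrb1 than wild type muscle, while Arrb2 was at nearly the same level in both with TMM scaling. On a common scale for all 9 libraries Arrb1 was at 53.9 CPM in kidney and 20.1 ± 2.63 CPM in muscle (SD, n = 2), and Arrb2 was at 8.80 and 8.24 ± 0.348 CPM. The log2 difference for Arrb1 was 1.42 (SE 0.57), or 1.56 and 1.29 against each muscle library, which put it past the size rule, as were 19.4% of the 16811 genes tested in the same direction and 11.9% in the other. Its unadjusted p was 0.036 and its adjusted p was 0.157 with edgeR's quasi-likelihood test, in a comparison where 13.2% of genes had an adjusted p under 0.05. For Arrb2 the log2 difference was 0.10 (SE 0.73, adjusted p 0.961 with edgeR). Scaled to total counts, the differences were 1.99 for Arrb1 (adjusted p 0.0579 with edgeR) and 0.68 for Arrb2 (adjusted p 0.705). Tissue and set letter cannot be told apart here, because kidney is in set A alone.

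In kidney, Arrb1 was lower in the tumour library, and Arrb2 was at a similar level in both. Arrb1 had 38.4 CPM from 1711 counts in tumour and 70.7 CPM from 2992 counts in wild type, a ratio of 0.543 with an exact conditional 95% interval of 0.511 to 0.576 that covers counting error only. Of the 16176 genes described, 8.60% had a log2 ratio at or below the -0.88 of Arrb1, which falls just short of the 2-fold size rule that 3.21% of genes passed downward. Arrb2 had 10.6 and 11.6 CPM, a ratio of 0.914 (0.804 to 1.04), so its interval holds a ratio of 1. Each group is 1 library and no test was made. Adipocyte markers summed to 1508 CPM in the tumour kidney and 148 CPM in the wild type kidney, and erythroid markers to 2265 and 522 CPM; their part in the level of Arrb1 was not tested.

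In muscle, Arrb2 was higher in both tumour libraries than in any other, and Arrb1 was not. With PBS, the tumour library had 13.7 CPM of Arrb2 from 466 counts, against 162 and 180 counts and 7.59 and 7.85 CPM in wild type. The fitted log2 difference was 0.83 (SE 0.69, adjusted p 1 and unadjusted p 0.248 with edgeR), and was 0.85 and 0.80 against each wild type library, below the size rule, which 0.956% of genes passed upward and 0.426% downward. A log2 difference at least as high was found for 7.20% of genes. Arrb1 differed by 0.09 (SE 0.61, adjusted p 1 with edgeR), and its tumour value of 19.9 CPM lay between the wild type values. When the tumour change in kidney was set against that in muscle within a fit to all 9 libraries, the difference was -0.98 for both genes (SE 0.90 for Arrb1 and 1.11 for Arrb2; adjusted p 1.00 with edgeR), in a contrast with 0 genes called of 16811 and 99 at an unadjusted p under 0.05.

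The MDC library differed little from tumour PBS in either gene. Arrb1 was at 18.9 against 19.9 CPM (log2 difference -0.07, SE 0.71) and Arrb2 at 16.4 against 13.7 CPM (0.26, SE 0.82), each with an adjusted p of 1 with edgeR. Against wild type PBS, Arrb2 in the MDC library was higher by 1.09 on the log2 scale (SE 0.69, unadjusted p 0.132 and adjusted p 1 with edgeR). It passed the size rule, with 1.11 and 1.06 against each wild type library, as did 0.504% of the genes tested upward, against 0.711% downward. The lower of these values lies just above the log2 value of 1 that the rule asks for. Arrb1 was at 0.01 (SE 0.61) in that comparison. The comparisons of tumour PBS and of tumour MDC with wild type share the same wild type libraries.

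Over libraries by label, the tumour libraries (n = 2) had a mean log2 CPM of Arrb2 0.86 above the other 5, and the groups did not overlap. The exact two-sided permutation p was 0.0952, the smallest this design can give, and 0.429 after adjustment over 9 such tests. Of all genes tested, 7.74% were higher and 8.88% lower without overlap in the same split. Arrb1 overlapped between the groups, with a difference of -0.14 (exact permutation p 0.476). Both tumour libraries are in set B, and the wild type library of set B had the lowest Arrb2 of all 7 at 7.59 CPM.

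Some markers of blood cells were higher in both tumour libraries, as Arrb2 was, and others were not. Neutrophil markers summed to 342 and 42.0 CPM in tumour PBS and tumour MDC against 1.0 to 14.2 CPM in the other muscle libraries. Of 11 tested, 10 were higher in both tumour libraries, beside 7.74% of all genes tested. Mpo and Elane, a peroxidase and a protease of neutrophil granules, had 0 counts in all 5 libraries without tumour. They passed the count filter through the tumour libraries alone, so they could not come out lower there. The same holds for Cxcr2, which was below the filter's minimum count of 10 in those 5 libraries. Ngp, Camp and Retnlg had 0 counts in both knockout-labelled libraries and in wild type PBS 2. The 10 of 11 therefore include genes that the filter let in only where they were high. Erythroid markers were higher in both tumour libraries for 5 of 5 (2576 and 5123 CPM against 523 to 1722), beside the same 7.74% of all genes. Pan-leukocyte markers, genes used by nearly all white blood cells, were not: they summed to 116 CPM in tumour PBS and 50.3 CPM in tumour MDC, inside the 33.7 to 119.9 CPM of the other libraries, and 0 of 10 were higher in both. Macrophage and monocyte markers were likewise inside the range, at 342 and 185 CPM against 103 to 605. Tumour MDC had lower neutrophil, pan-leukocyte and macrophage sums than tumour PBS, while its Arrb2 was higher on the CPM scale (16.4 against 13.7) and not on the RPKM scale (7.07 against 7.19). The part of these cells in the Arrb2 level was not tested.

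**Figure D3:**
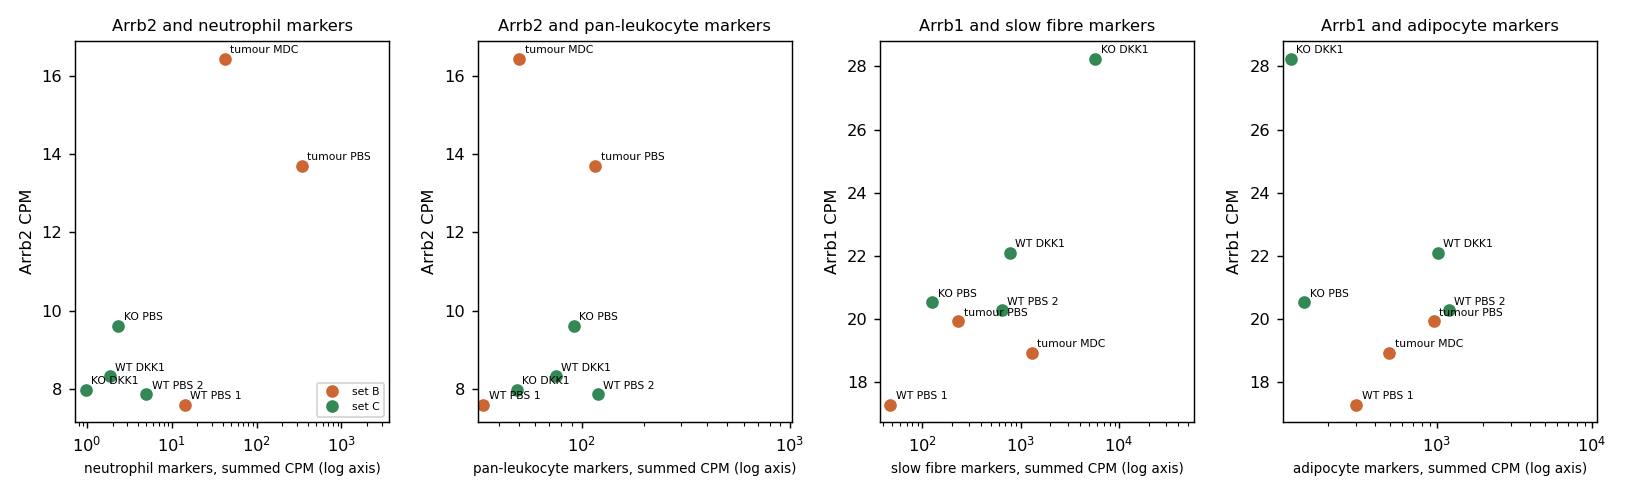
CPM of Arrb2 or Arrb1 (y axis) against the summed CPM of 1 marker list (x axis, log scale) in the 7 muscle libraries, 1 point per library, coloured by set letter. Arrb2 is highest at 16.4 CPM where pan-leukocyte markers are at 50.3 CPM, and Arrb1 is highest at 28.2 CPM where slow fibre markers are at 5722 CPM.

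DKK1 libraries had the highest Arrb1 levels in muscle, by a small margin in wild type. Arrb1 was at 22.1 CPM in wild type DKK1, against 17.3 and 20.3 CPM in the wild type PBS libraries, a log2 difference of 0.23 (SE 0.61). It was at 28.2 CPM in knockout-labelled DKK1 against 20.5 CPM in knockout-labelled PBS, a log2 difference of 0.46 (SE 0.71). Arrb2 was at 8.32 CPM in wild type DKK1 (0.11 above wild type PBS, SE 0.71) and at 7.98 CPM in knockout-labelled DKK1 (-0.27 from knockout-labelled PBS, SE 0.82). All 4 had an adjusted p of 1 with edgeR and none passed the size rule, which 1.73% of genes passed upward and 0.297% downward in wild type and 1.52% and 0.478% in the knockout-labelled libraries.

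By treatment label, the 2 DKK1 libraries lay above the 3 PBS libraries without tumour for Arrb1, with a mean log2 difference of 0.37. The exact two-sided permutation p was 0.2, the smallest possible here, and 0.450 after adjustment. In the same split 7.74% of genes were higher and 7.36% lower without overlap. Arrb2 overlapped, at -0.03 (exact permutation p 1). Within set C alone, which holds both DKK1 libraries and 2 of these PBS libraries, Arrb1 was at 22.1 and 28.2 against 20.3 and 20.5 CPM. Slow fibre markers such as Myh7, the slow myosin heavy chain, were higher in both DKK1 libraries for 7 of 8 genes, summing to 783 and 5722 CPM against 47.8, 641 and 127 CPM, and none was at 0 counts in any muscle library. The knockout-labelled DKK1 library was highest for both Arrb1 and the slow fibre sum and wild type PBS 1 lowest for both, while tumour MDC had the second highest slow fibre sum, 1303 CPM, and the second lowest Arrb1. Erythroid markers were also higher in both DKK1 libraries for 3 of 5 (Hba-a1, Hba-a2 and Alas2), with sums of 1722 and 1240 CPM against 660, 646 and 523 CPM. Fibroblast markers were higher in both for 3 of 6 (Dcn, Pdgfra and Lum), with overlapping sums of 1783 and 818 CPM against 511, 1093 and 544 CPM. The part of fibre type and of these cells in the Arrb1 level was not tested.

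On the CPM scale both genes were above both wild type PBS values in each muscle library labelled knockout, although on the RPKM scale, which uses total counts, Arrb1 with PBS was between them at 2.81 against 1.91 and 3.06, so the counts do not show which gene the label refers to. With PBS, the knockout-labelled library had 498 counts of Arrb1 and 233 of Arrb2. Against wild type PBS the log2 difference was 0.13 for Arrb1 (SE 0.61; 0.25 and 0.02 against each library) and 0.32 for Arrb2 (SE 0.70; 0.34 and 0.29). With DKK1, the knockout-labelled library had 931 counts of Arrb1 and 263 of Arrb2, and differed from wild type DKK1 by 0.35 (SE 0.70) and -0.06 (SE 0.82). The adjusted p was 1 with edgeR for all 4, and none passed the size rule, which 0.523% of genes passed upward and 0.723% downward with PBS, and 1.99% and 7.46% with DKK1. The 95% interval for Arrb1 with PBS ran from -1.16 to 1.42 and that for Arrb2 from -1.17 to 1.80 on the log2 scale, so the fit does not exclude a loss of more than 2-fold, although no library showed one. As given above, a whole-gene count would change little if 1 coding exon before the last were missing and the rest of the transcript were still made. Whether this holds here was not tested.

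The difference of the DKK1 change between knockout-labelled and wild type muscle was 0.22 for Arrb1 (SE 0.93) and -0.38 for Arrb2 (SE 1.08), with an adjusted p of 1.00 for both with edgeR. By label, the 2 knockout-labelled libraries overlapped with the 3 wild type libraries without tumour for Arrb1 (difference 0.28) and Arrb2 (0.14), with an exact permutation p of 0.4 for each, in a split where 12.1% of genes were higher without overlap and 12.1% lower. Adipocyte markers were lower in both knockout-labelled libraries for 8 of 8, at 141 and 115 CPM against 304, 1198 and 1019 CPM, and their part in the levels of Arrb1 and Arrb2 was not tested.

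**Figure D4:**
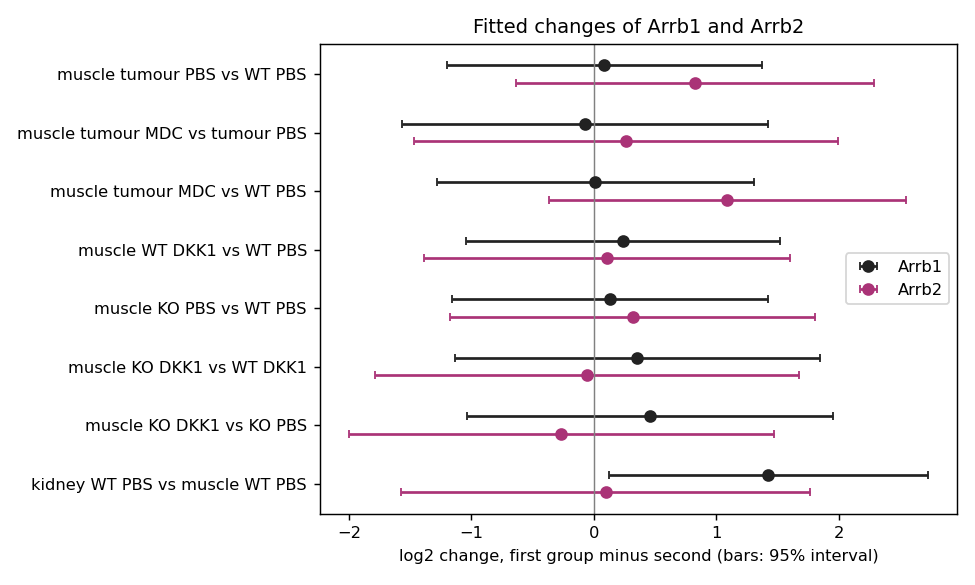
Fitted log2 difference of Arrb1 and Arrb2 in each comparison (first group minus second), with the 95% interval of edgeR's quasi-likelihood fit as bars. All muscle intervals include 0, and the highest muscle estimate is 1.09 for Arrb2 in tumour MDC against wild type PBS.

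The balance of the genes moved further between libraries than Arrb1 did in muscle, and it does not depend on library scaling. The ratio of Arrb1 to Arrb2 per length was 1.71 in wild type kidney (95% counting interval 1.55 to 1.89) and 1.02 in tumour kidney (0.916 to 1.13). In muscle it was 0.637 (0.528 to 0.771) and 0.722 (0.607 to 0.863) in wild type PBS, a mean of 0.679 ± 0.0604 (SD, n = 2). It was 0.407 (0.361 to 0.459) in tumour PBS and 0.322 (0.279 to 0.371) in tumour MDC. The tumour library had the lower ratio in both tissues, with lower Arrb1 in kidney and higher Arrb2 in muscle, and none of these counting intervals overlapped that of wild type within its set.

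Wild type DKK1 had a ratio of 0.743 (0.653 to 0.847) and knockout-labelled PBS 0.597 (0.510 to 0.701), both with intervals that overlap those of the wild type PBS libraries. Knockout-labelled DKK1 had 0.990 (0.862 to 1.14), the highest in muscle. By label, the log2 ratio of the tumour muscle libraries lay 1.00 below that of the other 5 without overlap (exact two-sided permutation p 0.0952, the smallest possible, adjusted p 0.429). For DKK1 against PBS without tumour the difference was 0.40 without overlap (exact permutation p 0.2, the smallest possible, adjusted p 0.450), and for the knockout label it was 0.14 with overlap (exact permutation p 0.8). Which gene comes out higher depends on the length used, while the order of the libraries does not. With the lengths of the shortest RefSeq-matched transcripts every ratio is 1.30 times higher, which puts knockout-labelled DKK1 at 1.29 and the other muscle libraries at 0.419 to 0.967. With coding lengths all 7 muscle ratios exceed 1, from 1.13 to 3.47. The counts also hold reads of untranslated parts, so a ratio over coding lengths is not a level per length.

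**Figure D5:**
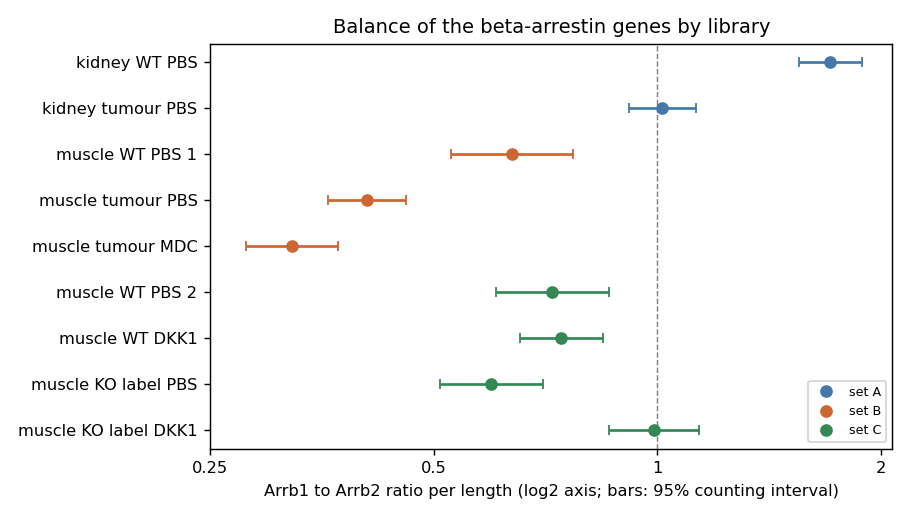
Ratio of Arrb1 to Arrb2 per length in each of the 9 libraries on a log2 axis, with exact 95% counting intervals as bars and a dashed line at equal levels. Both tumour muscle libraries, at 0.407 and 0.322, lie below every other library.

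Other arrestins ranged in muscle from near 0 to far above the beta-arrestins, with Arrdc1 and Arrdc4 at mean levels of 3.06 and 3.33 RPKM beside 3.03 for Arrb1 and 5.12 for Arrb2. The visual arrestins Sag and Arr3 had at most 2 counts in any of the 9 libraries. The alpha-arrestins, relatives that recruit ubiquitin ligases, were led in muscle by Txnip, an inhibitor of glucose uptake, at a mean of 290 RPKM, and by Arrdc2 at 34.5 RPKM. Of the 7 family genes tested, Arrb1 and Arrb2 included, 0 were called by adjusted p in muscle, and 1, Arrb2 itself, passed the size rule in tumour MDC against wild type. In knockout-labelled DKK1 against wild type DKK1, 2 passed upward: Arrdc2 at 115 against 28.8 CPM (log2 difference 2.00) and Arrdc3 at 136 against 57.7 CPM (1.24), against the 1.99% of genes that passed upward. In the split of the 2 tumour muscle libraries against the other 5, Arrb2, Arrdc1 and Txnip were higher without overlap and Arrdc3 was lower. Over all genes, 7.74% were higher and 8.88% lower in that split. Against wild type, 6 of the 7 family genes were above 0 in tumour MDC, with a median log2 difference of 0.83. The median over all genes there was -0.04. Between the wild type tissues Arrdc2 was lower in kidney by a log2 difference of -3.15 (SE 0.81, adjusted p 0.037 with edgeR).

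Among the 6 receptor kinases, Grk2, the broadly acting kinase listed under its older symbol Adrbk1, was at 63.9 to 81.8 CPM over the muscle libraries, and Grk6 ran from 11.6 to 18.6 CPM. Grk5 was the 1 kinase past the size rule in muscle. It was at 9.53 CPM in tumour PBS against 3.84 and 3.45 CPM in the wild type PBS libraries, a log2 difference of 1.39 past the size rule, as were 0.956% of genes upward, and at 4.74 CPM in tumour MDC. It was also lower in knockout-labelled DKK1 than in wild type DKK1, at 3.31 against 7.04 CPM (-1.09), where 7.46% of genes passed the size rule downward. No kinase had an adjusted p under 0.05 in muscle with edgeR and 1 coefficient per group.

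Few clathrin uptake genes passed the size rule in muscle. Of 21 tested, 0 passed the size rule in 6 of the 7 muscle group comparisons and 1 in the last, Dnm1, a dynamin that pinches vesicles off the membrane, at 12.3 CPM in knockout-labelled DKK1 against 4.58 CPM in knockout-labelled PBS (log2 difference 1.43; 1.52% of genes passed upward). Their median log2 difference stayed between -0.13 and 0.04 in those comparisons, beside all-gene medians of -0.10 to 0.00. The clathrin light chain Cltb and the epsin Epn1 were the most abundant members in muscle at mean levels of 70.7 and 62.2 RPKM. Clathrin heavy chain Cltc ran from 124 to 180 CPM and Ap2b1, the AP-2 subunit that binds beta-arrestins, from 51.3 to 61.1 CPM.

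Of 22 signalling partners, led in muscle by the phosphatase subunit Ppp2ca at 88.1 RPKM and the ubiquitin ligase Nedd4 at 81.6 RPKM, 0 were called by adjusted p in muscle. The Src-family kinase gene Fgr, expressed in white blood cells, was lower in tumour MDC than in tumour PBS, at 0.759 against 3.12 CPM, where 2.29% of genes passed the size rule downward. Src and the MAP kinase Mapk3 were lower in knockout-labelled DKK1 than in wild type DKK1, at 2.49 against 5.55 CPM and 25.3 against 50.9 CPM. In that comparison 7.46% of all genes passed the size rule downward. In kidney, Usp20, a deubiquitinase that acts on beta-arrestins and receptors, was at 41.9 CPM in tumour and 102 CPM in wild type (log2 ratio -1.28; 3.21% of genes passed the size rule downward). Between the wild type tissues 3 partners were called higher in kidney and 1 lower with edgeR, beside the 13.2% of all genes called, led by Chuk, a kinase of the NF-kappaB pathway, at a log2 difference of 3.37 (SE 0.56, adjusted p 0.00572), and by the phosphodiesterase Pde4d at -3.01 (SE 0.74, adjusted p 0.032).

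More of the genes listed here as receptors handled by beta-arrestins passed the size rule. The sphingosine receptor S1pr1 and the Wnt receptor Fzd4 were the most abundant in muscle at 28.4 and 16.6 RPKM. The chemokine receptor Cxcr2, itself on the neutrophil list, had 396 counts in tumour PBS, 40 in tumour MDC and 0 to 4 in the other muscle libraries. Adrb3 is an adipocyte receptor, and its place on the receptor list does not show that beta-arrestins handle it. It had 0 and 6 counts in the knockout-labelled libraries and 26 to 176 in the wild type libraries without tumour. Of 19 tested, 5 were past the size rule downward in tumour MDC against tumour PBS, where 2.29% of all genes were, and 4 in knockout-labelled DKK1 against wild type DKK1, where 7.46% were, among them the apelin receptor Aplnr at 7.77 against 31.8 CPM. In kidney, the trypsin-activated receptor F2rl1 and the atypical chemokine receptor Ackr3 were higher in the tumour library, at 32.0 against 9.48 CPM and 89.6 against 28.4 CPM, where 4.54% of genes passed upward. Between the wild type tissues, 5 receptors were called higher in kidney and 1 lower with edgeR, where 13.2% of all genes were called, with Pth1r, the parathyroid hormone receptor, at a log2 difference of 7.62 (SE 0.68, adjusted p 0.00167) and S1pr1 at -3.35 (SE 0.74, adjusted p 0.021).

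In the Wnt receptor complex, the co-receptor Lrp6 named in the title was at 34.6 and 59.4 CPM in wild type PBS muscle and inside or near that range elsewhere, from 34.1 CPM in tumour MDC to 61.2 CPM in wild type DKK1. Lrp5 ran from 6.05 CPM in wild type PBS 1 to 41.3 CPM in wild type DKK1, with the second wild type PBS library at 32.0 CPM. Dkk1 transcripts had 0 counts in 6 of the 7 muscle libraries and 6 counts in tumour MDC, where a count of 0 allows up to 3 counts, and administered DKK1 would not appear in these values. The beta-catenin gene Ctnnb1 and the Dishevelled gene Dvl1 were the most abundant members, at mean levels of 72.7 and 48.0 RPKM. Dkk3, a secreted relative of Dkk1, was at 30.9 CPM in wild type DKK1 against 159 and 83.1 CPM in the PBS libraries (log2 difference -1.97, where 0.297% of genes passed the size rule downward), and at 139 CPM in tumour MDC against 49.4 CPM in tumour PBS (1.496, where 0.833% passed upward). Dkk2 was at 1.28 CPM in knockout-labelled PBS against 6.37 and 2.88 CPM in the wild type PBS libraries, where 0.723% of genes passed the size rule downward. It was at 7.98 CPM in knockout-labelled DKK1. None of the 13 tested was called by adjusted p in muscle with edgeR and 1 coefficient per group.

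The genes on either side of Arrb2 differed in both directions in the tumour libraries. The 3 nearest measured genes on each side of Arrb2 (Pelp1, Alox12 and Rnasek before it, Med11, Cxcl16 and Zmynd15 after it) had log2 differences from -0.61 to 0.82 in tumour PBS and from -2.62 to 0.65 in tumour MDC against wild type, with 3 of 6 below 0 in each, beside 0.83 and 1.09 for Arrb2. Those above 0 in both were Alox12 (0.82 and 0.59), Rnasek (0.28 and 0.65) and Med11 (0.08 and 0.54). All 6 were below 0 in knockout-labelled PBS against wild type PBS, from -0.75 to -0.15, where Arrb2 was at 0.32, and 3 of 6 were below 0 with DKK1. Zmynd15 had 3 to 45 counts in muscle. The neighbours of Arrb1 (Rps3, Snord15b, Gdpd5, Slco2b1, Neu3 and Spcs2) ranged from -0.33 to 0.39 in knockout-labelled PBS against wild type PBS. In wild type kidney against wild type muscle all 6 were below 0, from -1.64 to -0.04, where Arrb1 was at 1.42. Snord15b lies inside Rps3, and reads of the 2 may not be told apart. The microRNA gene Mir326, inside Arrb1, had 0 counts in every library.

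Pattern likeness was measured as the Pearson r of log2 CPM over the 7 muscle libraries among 14096 genes, and is a description. The genes were picked by r over these same libraries, so a shared highest library largely follows from the choice. The number of genes that chance would put above an r of 0.9 was not worked out. Closest to Arrb1 were Adh7 (0.99), Prox1 (0.98), Crim1 (0.98), Adprhl1 (0.95) and Dnajb5 (0.95), and 22 genes had an r above 0.9. All 5 had their highest muscle level in knockout-labelled DKK1, as Arrb1 did, and Adh7 and Prox1 had at most 43 and 98 counts in muscle. Closest to Arrb2 were Spata21 (0.98), Cnppd1 (0.97), Hist4h4 (0.97), Hnrnpu (0.97) and Sycp1 (0.96), and 50 genes had an r above 0.9. Of these, Spata21, Hist4h4 and Sycp1 had at most 22 counts in any muscle library, while the RNA-binding protein gene Hnrnpu was at 166 and 147 CPM in tumour MDC and tumour PBS against 104 to 127 CPM in the others.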

How the data were processed

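Total RNA of mouse kidney and muscle was extracted with TRIzol, per the labels' protocols, and sequenced as 9 libraries. Per the submitters' processing notes, HISAT2 2.1.0 and the build mm10 were used; for the counting program, annotation and strand setting the entry is: not given in the sources used here. The deposited tables hold raw read counts per gene, gene length and RPKM computed by the authors from those counts (recomputed values were within 0.0005%, for genes with 100 or more counts).

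Counts were scaled with TMM, and log2 CPM used a prior count of 2. edgeR 4.0.16 (R 4.3.3) fitted its quasi-likelihood test to the 7 muscle libraries with 1 coefficient per group, and to all 9 for the tissue comparison, after filterByExpr (minimum count 10; 15482 and 16811 genes), with Benjamini-Hochberg adjustment. Single libraries are assumed to vary like the wild type pair (common biological coefficient of variation 0.498, 15.1 prior degrees of freedom). Status contrasts used exact permutation tests (scipy 1.17.1). Intervals cover counting error only, except those of the fit. The method was tested on simulated data, and the outcome is not reported here. Alternatives were other scalings, DESeq2 1.42.0, limma-voom (limma 3.58.1), no filter, additive terms (also with a set letter term) and leaving out each wild type library.

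Named from each list were the 2 genes with the highest mean muscle RPKM, up to 2 per direction past the size rule, and a fixed panel, of which some genes are not reported here; pattern genes and neighbours followed set numbers of 5 and 3. The members and lists were chosen with earlier results of these data known. Transcripts are from GENCODE M21.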

Additional observations from a re-analysis of the deposited data

How the results depend on the processing

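Of 146 alternative values for the changes of Arrb1 and Arrb2, 134 kept their direction and side of the threshold and 12 changed sign. Of the 118 with an adjusted p, 0 were under 0.05, and the smallest was 0.0579. The changes of sign were among values near 0, and the cause was not tested. Arrb1 in tumour MDC against wild type PBS moved to -0.00058 with DESeq2-style size factors and with DESeq2, to -0.13 with total counts and to -0.031 without the filter. With total counts, Arrb2 in tumour MDC against tumour PBS moved to -0.024 and the Arrb1 interaction to -0.10. With additive terms, Arrb2 moved to -0.052 in wild type DKK1 and to 0.16 in knockout-labelled DKK1 against wild type DKK1, and with a set letter term as well to -0.094 and 0.11. Apart from these, 1 of 12 alternatives for the label contrasts, added after the data were seen, changed sign: Arrb2 by DKK1 label, from -0.03 to 0.29 with total counts. Leaving out 1 wild type PBS library gave Arrb1 -0.025 to 0.21 in tumour PBS and -0.10 to 0.13 in tumour MDC, with the lower values without library 1, and Arrb2 0.80 to 0.85 and 1.07 to 1.11. Total-count scaling shifted the all-gene median from -0.03 to 0.43 in wild type DKK1 against PBS and from 0.05 to 0.64 between tissues.

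In place of 0 genes called, DESeq2 called 12 in tumour PBS, 11 in tumour MDC, 4 in wild type DKK1 and 19 in knockout-labelled PBS against wild type PBS, 14 in knockout-labelled against wild type DKK1 and 3 in the interaction; total counts gave 5 in tumour PBS and 1 in knockout-labelled PBS. The set letter term, added after the data were seen, takes up the difference within the wild type PBS pair and leaves 1 residual degree of freedom, from the interaction of knockout label and DKK1. With it edgeR called 1228 genes (7.93%) in tumour PBS and 374 in tumour MDC against wild type PBS, 51 between the tumour libraries, 178 for DKK1 and 3184 (20.6%) for the knockout label. Arrb2 had adjusted p-values of 0.0967 in tumour PBS and 0.0711 in tumour MDC against wild type. Of 19 receptors, 8 were then called higher in tumour PBS and 6 lower by knockout label, and the other 5 pathway lists had 0 to 3 genes called in each comparison. The cause was not tested. Between tissues limma-voom called 938 genes and edgeR 2219. No paired analysis was possible because only the wild type PBS pair carries replicate numbers and no group shares them, and the set letter was fitted as the term above instead. With 162 to 466 counts of Arrb2 per muscle library, counting error is small beside the spread of the fit.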
